A study of Mus musculus with 20 samples.

Results

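The adrenosympathic cells of the mouse urogenital ridge were examined in a single-cell atlas of gonad development made by droplet-based 3′ end RNA sequencing. Members are all cells that the authors' cell table annotates as adrenosympathic. They numbered 627 of 94705 cells, and 549 of them came from the 4 libraries of E10.5, where E counts embryonic days. All 627 lie in 1 cluster of the authors' clustering, which holds no cell of another type. They were compared with the coelomic epithelium (CE), which had 2335 cells at E10.5, and the mesonephric mesenchyme (MM), which had 9044, both from the same libraries.

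Embryos were XX or XY and came from CD-1 outbred females crossed with males heterozygous for an Nr5a1-GFP transgene, in which the Nr5a1 promoter drives GFP. There were 2 libraries per sex at each of 5 stages between E10.5 and E16.5, thus 20 in all, and no group had been treated. At E10.5 and E11.5 the tissue included the mesonephros, whereas gonads were taken alone from E12.5 on. The libraries held 31241516 to 160435537 unique molecular identifiers (UMIs), and an adrenosympathic cell of E10.5 held 10260 to 84667, with a median of 30550. The methods of the study call the libraries of a group independent replicates. Their labels carry different dates, and what a date records is not given. Whether the libraries came from separate litters is not given in the sources used here, and p-values measure the spread between libraries only.

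The sympathoadrenal lineage arises from trunk neural crest. Crest cells migrate to the dorsal aorta near the urogenital ridge, where BMP signals switch on transcription factors such as Hand2 and Gata3. Such factors drive neuronal genes and the enzymes of catecholamine synthesis, of which tyrosine hydroxylase (Th) makes L-DOPA and dopamine beta-hydroxylase (Dbh) makes noradrenaline. Schwann cell precursors, which keep Sox10 and Erbb3, line the nerves and supply further chromaffin and sympathetic cells. The steroid-producing adrenal cortex has another origin, the Nr5a1-expressing coelomic epithelium.

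A few features of the data bear on these cells. Within each sex and stage the matrix holds no counts of a gene found in fewer than 20 cells of that group, and 2952 to 5856 of 26397 genes stood at 0 there. A gene particular to adrenosympathic cells is thus lost where these cells are few, as among the 23 of XX E11.5. Of the 627 cells 82 carry a barcode also found in another library, as do 10846 of all 94705 cells. At E10.5, 5.79% to 9.29% of adrenosympathic cells were among the 5% of cells with the highest doublet score of their library. Of the 269 UMIs of the muscle gene Myog at E10.5, 165 and 87 came from 2 cells. Other muscle genes were spread more widely, such as Des with 362 UMIs in 197 cells and Tnnt1 with 234 in 116. Skeletal muscle genes are not followed further.

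The genes commonly used for steroidogenic cells were low in these cells. Nr5a1, the nuclear receptor that specifies gonad and adrenal cortex (chr2:38692656-38714542, GRCm38), stood at 2.71, 4.2, 3.65 and 4.4 CPM, the UMIs of a gene per 1000000 UMIs of a cell type in a library, in the adrenosympathic cells of XX replicates 1 and 2 and XY replicates 1 and 2. In the CE it stood at 74.0 to 90.3 and in the MM at 7.78 to 10.8, so the types did not overlap. The log2 fold change was -4.41 ± 0.18 (SE, adjusted p = 1.6e-09 in edgeR's quasi-likelihood test) against the CE. Star, which carries cholesterol into mitochondria, was at 0.00 to 1.01 CPM in adrenosympathic cells and at 10.7 to 24.2 in the CE. Cyp11a1, which cuts the side chain of cholesterol, was at 0.00 to 0.73 and at 2.43 to 10.7. Both were also called lower than in the MM, from 10 UMIs of Star and 3 of Cyp11a1 in the 549 adrenosympathic cells. The call for Star was lost without XX replicate 1, XX replicate 2 or XY replicate 1. That for Cyp11a1 was lost in 3 settings, among them without XX or XY replicate 2.

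Nr5a1 gave a UMI in 11.1% of adrenosympathic cells, in 66.1% of 1000 CE cells drawn at random and in 16.3% of endothelial cells, which should lack it. At 10000 UMIs per cell these shares were 3.28%, 44.4% and 2.92%. The median depths were 30550, 24669 and 34892 UMIs. The share in adrenosympathic cells was thus near the background in endothelium. GFP ranged from 19.0 to 73.8 CPM against 1023 to 2180 in the CE and 93.8 to 150 in the MM. Of 12 genes of the adrenal cortex and of steroid synthesis tested, Hsd3b1 and Mc2r were lower than in both other types besides these 3, and none was higher. Nr5a1, Star and Cyp11a1 thus did not mark these cells, and the name is kept here only as that of the annotation.

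Across 17188 genes tested at E10.5, 1785 (10.4%) were called higher and 1817 (10.6%) lower than in the CE, at an adjusted p below 0.05 and a fold of at least 2. Against the MM, 1733 (10.1%) were higher and 1640 (9.54%) lower, or 19.6% in either direction. Higher than both were 1348 genes (7.84%), and lower than both 1078 (6.27%). Libraries did not overlap with either type for 1223 (7.12%) and 923 (5.37%) of these. Cells had been typed by clustering these same genes, so the counts describe how far the types lie apart and are no independent test. In the counts of lists that follow, a gene is higher or lower only if it was so against both types. The lists were drawn up with earlier results of these data known.

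**Figure D1:**
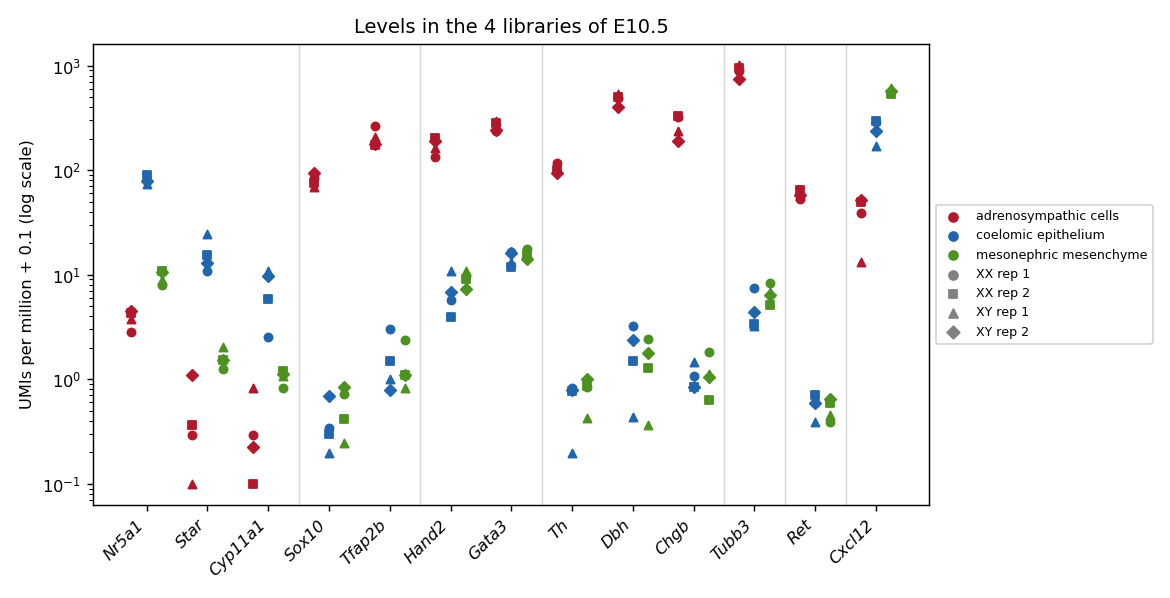
CPM plus 0.1 on a log axis for 13 genes (x axis) in adrenosympathic cells, CE and MM. Each point is 1 library of E10.5, and the symbol gives sex and replicate. Nr5a1, Star and Cxcl12 lie below both other types, Cyp11a1 lies below the CE and touches the MM, and the other 9 genes lie above both types without overlap.

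The 10 largest rises over the CE, among genes higher than both types without overlap of libraries and with a mean above 20 CPM over the 3 types, included Tbx20, Tlx2, Insm1, Hand1, Dbh, Sox10, Chgb and Ndufa4l2. Tbx20, Tlx2, Insm1 and Hand1 encode transcription factors, and their log2 fold changes ran from 8.26 to 8.50. The 10 largest falls were GFP, Lhx9, Upk3b, Gata4, Tcf21, Ctsh, Zbtb7c, Lpl, Emx2 and Rnf213, from -5.72 to -4.50. Lhx9, Gata4 and Emx2 are transcription factors needed to form the gonad.

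Of 15 sympathoadrenal transcription factors tested, 13 were higher than in both other types and none lower. Gata3, a zinc finger factor without which noradrenaline is not made (chr2:9857078-9890034), stood at 236, 279, 297 and 240 CPM in XX replicates 1 and 2 and XY replicates 1 and 2, at 11.7 to 16.53 in the CE and at 13.9 to 17.4 in the MM. Its log2 fold change was 4.18 ± 0.13 over the CE and 4.04 ± 0.13 over the MM. Hand2, a helix-loop-helix factor (chr8:57320983-57324633), was at 133, 202, 161 and 188 against 3.87 to 10.7 in the CE. Insm1, which marks cells on the way to a neuroendocrine fate, was at 81.6, 126, 128 and 130.1 and at most 0.89 in either other type. None of these genes overlapped the other types. Tbx20, better known from the heart, stood at 117 to 200 against at most 0.47 in the CE and 3.19 to 5.58 in the MM. Phox2a, Hand1, Gata2, Isl1, Tlx2, Eya1 and Tbx2 were higher as well.

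All 14 genes tested for catecholamine synthesis, storage and uptake were higher than in both other types. Dbh (chr2:27165233-27183200) stood at 485, 504, 529 and 400 CPM in XX replicates 1 and 2 and XY replicates 1 and 2, against 3.16, 1.40, 0.34 and 2.27 in the CE of the same libraries. The log2 fold change was 8.25 ± 0.50. Th stood at 117, 101, 103 and 93.4, and its highest value in the CE was 0.73. The granule protein Chgb was at 320, 331, 237 and 189.5 and at most 1.35 in the CE. Gch1, which makes the cofactor of Th, averaged 95.7 ± 20.7 CPM (SD, n = 4), the vesicular amine transporter Slc18a2 52.7 ± 8.95 and cytochrome Cyb561, which recycles ascorbate for Dbh, 214 ± 31.9. Ddc, the decarboxylase between the steps of Th and Dbh, rose least of these enzymes, with a log2 fold change of 2.64 ± 0.20 over the CE. Slc6a2, the noradrenaline transporter, was called higher but stood at 0.84 ± 0.27 CPM. Pnmt, which turns noradrenaline into adrenaline, had 4 UMIs in 549 cells, 0.18 ± 0.12 CPM, and was too low to test. Its levels in the CE and MM were 0.49 ± 0.22 and 0.29 ± 0.06.

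Dbh was also found at a low level outside these cells. In the sum of all cells of other types, Dbh stood at 2.4, 1.25, 0.32 and 1.87 CPM in XX replicates 1 and 2 and XY replicates 1 and 2 of E10.5. In the same order, adrenosympathic cells made up 5.47%, 2.67%, 1.64% and 4.76% of cells. At E11.5, where the shares were 0.551%, 0.0438%, 0.546% and 0.171%, Dbh in other cells was at 0.23, 0.086, 0.17 and 0.026. The order of the shares was that of Dbh at E10.5 but not at E11.5. In the XY libraries of E16.5, which held no adrenosympathic cell, Dbh was at 0.12 and 0.29. At E10.5, 210 of 549 adrenosympathic cells held UMIs of both Th and Dbh, and 16 of 14413 other cells did. At E11.5 these were 20 of 60 and 1 of 16610.

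The palindrome TGACGTCA, the cyclic AMP response element, was searched in the 250 bases before the RefSeq starts of these genes. It reads the same on both strands and was the only motif searched. Windows were at hand for 11 of the 15 genes of the list, and 3 of the 11 held it, which is 3 of 12 windows or 25%, against 508 of 32851 windows of all genes (1.55%). The 120 bases before the start of these 3 genes, and of Dbh, the list's enzyme for noradrenaline, which had no match, follow 5′ to 3′ on the gene's strand, with the match in capitals (RefSeq, GRCm38.p6).

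Th, chr7:142899996-142900115, minus strand: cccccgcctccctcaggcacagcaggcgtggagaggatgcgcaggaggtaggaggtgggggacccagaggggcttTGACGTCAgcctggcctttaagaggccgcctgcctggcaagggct

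Chgb, chr2:132781522-132781641, plus strand: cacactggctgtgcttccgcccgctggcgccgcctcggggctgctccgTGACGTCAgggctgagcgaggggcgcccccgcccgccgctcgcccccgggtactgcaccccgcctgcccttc

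Scg2, chr1:79440027-79440146, minus strand: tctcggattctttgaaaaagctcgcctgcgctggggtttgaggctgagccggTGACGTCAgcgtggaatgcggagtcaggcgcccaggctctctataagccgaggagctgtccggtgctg

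Dbh, chr2:27165387-27165506, plus strand: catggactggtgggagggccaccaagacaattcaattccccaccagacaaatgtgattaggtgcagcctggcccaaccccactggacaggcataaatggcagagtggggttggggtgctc

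The match lies 45, 72 and 68 bases before the start in Th, Chgb and Scg2. These starts are those of RefSeq. The span of Dbh given above comes from GENCODE and begins upstream of the stretch shown, as do the GENCODE spans of Th and Chgb. Bases before other starts were not searched. Genes with and without a match were higher in adrenosympathic cells alike, as all 14 tested were.

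Of 27 genes of neural crest and Schwann cell precursors, 22 were higher than in both other types and 1 was lower. Sox10, the factor that marks crest and its glia (chr15:79154908-79165240), stood at 83.1, 75.3, 69.4 and 94.4 CPM in XX replicates 1 and 2 and XY replicates 1 and 2. Its highest value was 0.59 in the CE and 0.74 in the MM, and the log2 fold change over the CE was 8.07 ± 0.43. Tfap2b, which crest cells share with other ectoderm, averaged 205 ± 43.0 CPM (SD, n = 4) and was at 0.69 to 2.92 in the CE. Sox2 averaged 39.7 ± 7.63, the neuregulin receptor Erbb3 35.1 ± 2.83, and Foxd3, which marks early migrating crest, 9.36 ± 3.43. The exception was Sox9, which is also a gene of the mesenchyme, at 12.6 ± 3.01 against 46.2 ± 3.74 in the CE and 79.3 ± 15.6 in the MM. Ets1, S100b, Postn and Gfra3 were not called in the same direction against both types.

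Neuronal genes were higher in 26 of 31 cases and lower in none. Tubb3, the neuronal beta-tubulin, stood at 881, 937, 1013 and 738 CPM in XX replicates 1 and 2 and XY replicates 1 and 2, against 3.13 to 7.29 in the CE and 5.02 to 8.18 in the MM. Stmn2 averaged 409 ± 42.6 and the neurofilament Nefm 1899 ± 195. Nhlh1, a helix-loop-helix gene of newborn neurons, was among the 5 exceptions at 0.34 ± 0.34 against 1.12 ± 0.18 in the MM. Of 9 genes known from the maturing adrenal medulla and paraganglia, 8 were higher than in both types, among them Epas1 at 55.0 ± 7.64 and the nicotinic receptor subunit Chrna3 at 37.4 ± 3.79 against 0.41 ± 0.28 in the CE. These 9 include Th and Dbh, counted above with the catecholamine genes, and Cdkn1c, counted below with those of the cell cycle.

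Genes of other neural cells were looked up as a check. Of 8 genes of enteric crest, 5 were higher than in both types, among them Ret, Ednrb, Sall4 and Gfra1. The list of receptors holds Ret, Ednrb and Gfra1 as well. Of 6 tested genes of sensory neurons, 3 were higher and 1 lower. Prrxl1 stood at 24.5 ± 5.11 CPM with UMIs in 178 of 549 cells, Tlx3 at 19.2 ± 12.2 in 152 cells and Neurog1 at 2.80 ± 1.27 in 36 cells. Among 3 tested genes of motor neurons, Slc18a3, the vesicular transporter of acetylcholine, was higher, at 7.14 ± 3.74 with UMIs in 72 cells. Pools of few such cells and a low level in many cells were not told apart.

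Of 11 genes of the coelomic epithelium 10 were lower than in both types, and of 17 of the mesonephric mesenchyme 7 were. The summed level of the CE list was 35.96 to 92.7 CPM in adrenosympathic cells, 842 to 1176 in the CE and 209 to 260.5 in the MM. For the MM list these ranges were 705 to 874, 1245 to 1862 and 1757 to 2280. In adrenosympathic cells most UMIs of the MM list were of Dlk1 (10556, in 526 of 549 cells) and Col1a2 (2980, in 409). No other gene of that list had more than the 814 of Col3a1. Of the other lists, erythrocyte genes (8 tested) were called neither way, 1 of 4 germ cell genes (Ifitm3) was lower, 1 of 7 endothelial genes was higher (Cldn5) and 1 lower (Emcn), and of 8 genes of mesonephric tubules Gata3 was higher and Emx2 lower. The only immune gene tested was not called. The summed erythrocyte level ran from 43.6 to 408 and differed as much between libraries in the CE, from 48.8 to 476. The part of these traces in the results was not tested.

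Receptors and ligands of growth and guidance factors were counted apart, beside 7.84% of all genes higher and 6.27% lower than in both types. Of 32 receptors, 9 were higher than in both types (Ret, Gfra1, Gfra2, Ngfr, Erbb3, Ednrb, Cxcr4, Nrp2 and Plxna4) and 3 lower (Ntrk2, Ackr3 and Epha4). Ngfr, Erbb3 and Ednrb are also in the list of crest genes counted above. Ret, the receptor of GDNF family ligands, stood at 52.5, 64.8, 57.0 and 58.0 CPM in the libraries in the order above and at most 0.60 in either other type. Of 26 ligands of such receptors, 11 were lower and 3 higher (Bdnf, Slit3 and Efnb2). Cxcl12, the chemokine that Cxcr4 binds, stood at 38.9, 49.1, 13.1 and 51.6 CPM in adrenosympathic cells, at 169 to 293 in the CE and at 533 to 614 in the MM. Bmp4 was at 8.05 ± 2.61 against 29.8 ± 2.32 in the CE and 97.1 ± 11.9 in the MM, and the stem cell factor Kitl at 20.3 ± 3.50 against 87.7 ± 16.2 and 69.4 ± 16.55.

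Of 21 genes of the Notch pathway, 11 were higher than in both types and 1, Hes7, was lower. The ligand Dll1 was at 12.4, 16.54, 19.0 and 17.7 CPM and at most 0.95 in either other type. Hes6, which counters Hes1 in neuronal precursors, was at 280 ± 67.2 against 29.6 ± 3.04 in the CE, and Notch1 at 32.3 ± 4.30 against 2.49 ± 0.93. Of 10 targets of BMP signals 1 was higher, a share near the 7.84% of all genes. It was Msx2, with a log2 fold change of 1.05 ± 0.21 over the CE.

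Of 31 Hox genes, which tell cells their position along the body, 4 were higher and 3 lower than in both types, where 7.84% and 6.27% of all genes were. Against the CE alone 9 were higher and 4 lower, and against the MM alone 4 and 12. The 4 were Hoxb6, Hoxb7, Hoxb8 and Hoxb9, neighbours in 1 cluster. Hoxb9 was at 106, 107, 92.7 and 102 CPM against 5.24 to 7.54 in the CE and 14.2 to 21.6 in the MM. Hoxc5 was at 5.84 to 13.4 against 46.9 to 79.5 in the CE, and Hoxd9 and Hoxd10 were lower too.

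The adrenosympathic cells of E10.5 were next divided by a UMI of Sox10. Of 549 cells, 331 had one (60.3%) and 218 had none (39.7%). The shares with Sox10 were 64.3%, 55.7%, 55.6% and 61.2% in XX replicates 1 and 2 and XY replicates 1 and 2. Cells with Sox10 were deeper, with a median of 34087 against 27719.5 UMIs, and at 10000 UMIs per cell 222 cells (40.4%) kept a UMI of it. A Sox10 UMI was found in 0.7% of CE cells and 3.49% of endothelial cells, whose median depths were 24669 and 34892 UMIs.

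Sums of the cells with and without Sox10 were compared over the 4 libraries. Of 10877 genes, 667 (6.13%) were higher and 820 (7.54%) lower in the cells with Sox10, 13.7% in all. When cells were divided after thinning, 183 of 7838 were higher and 343 lower. Sox10 itself is no result here, and genes that go with it in single cells were bound to follow.

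**Figure D2:**
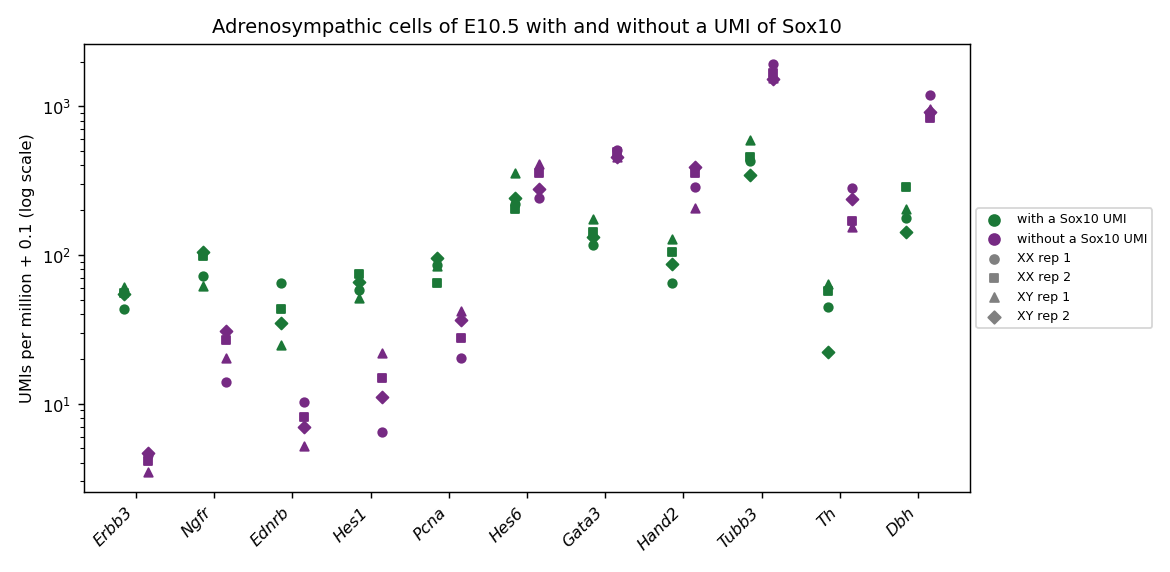
CPM plus 0.1 on a log axis for 11 genes (x axis) in adrenosympathic cells (E10.5) that held a UMI of Sox10 and in those that held none. Each point is 1 of the 4 libraries, and the symbol gives sex and replicate. Erbb3, Ngfr, Ednrb, Hes1 and Pcna are higher and Gata3, Hand2, Tubb3, Th and Dbh lower in the cells with Sox10 without overlap, whereas the levels of Hes6 overlap.

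Crest genes were higher in the cells with Sox10 in 17 of 21 cases and lower in none. Erbb3 stood at 42.99, 55.6, 60.6 and 54.6 CPM in the cells with Sox10 of XX replicates 1 and 2 and XY replicates 1 and 2, and at 4.43, 4.02, 3.37 and 4.54 in those without, with a log2 fold change of 3.67 ± 0.20 (adjusted p = 1.2e-06, edgeR). The neurotrophin receptor Ngfr, at 61.9 to 105 against 13.9 to 30.7, and the endothelin receptor Ednrb, at 24.5 to 64.5 against 5.05 to 10.1, did not overlap either. Foxd3 was at 11.2 to 20.9 against 0.00 to 1.68. Tfap2b, in contrast, had a log2 fold change of -0.55 ± 0.17 and did not reach the fold. The 8 largest rises were of Gpr17, Lrp4, Npr3, Moxd1, Tm4sf1, Egfl8, Slitrk2 and Rgcc. Egfl8 stood at 15.5 to 35.8 CPM against 0.00 to 2.68, and Npr3, a natriuretic peptide receptor, at 9.49 to 14.2 against 0.00 to 0.76. Their log2 fold changes were 4.41 ± 0.37 and 4.99 ± 0.57.

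Genes of differentiation were lower in the cells with Sox10. This held for 7 of 15 sympathoadrenal transcription factors, 12 of 13 catecholamine genes and 23 of 29 neuronal genes, and none was higher. Gata3 stood at 116, 143, 174 and 132 CPM in the cells with Sox10 of XX replicates 1 and 2 and XY replicates 1 and 2, and at 509.9, 491, 458 and 455 in those without, with a log2 fold change of -1.73 ± 0.11. The other 6 transcription factors were Phox2a, Hand1, Hand2, Gata2, Isl1 and Eya1. Dbh stood at 177.5, 288, 202.5 and 143.5 against 1182, 839, 955 and 917, with -2.23 ± 0.16, and Th at 44.7, 57.4, 63.2 and 22.2 against 280.0, 168, 155 and 237, with -2.27 ± 0.26. Neither gene overlapped between the groups. The exception among the catecholamine genes was Ddc, whose log2 fold change of -0.91 ± 0.14 did not reach the fold.

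The 8 largest falls were of Npy, Epha5, Arhgap36, Diras2, Lypd1, Vstm2l, Scg2 and Nyap2. Npy encodes neuropeptide Y, which sympathetic neurons release with noradrenaline. It had 9 UMIs in the cells with Sox10 and 101 in those without, where it was spread unequally over libraries, at 41.2, 2.68, 8.42 and 10.2 CPM. Scg2, a granule protein whose promoter is shown above, stood at 0.86 to 2.23 CPM in the cells with Sox10 and at 11.8 to 32.3 in those without, with a log2 fold change of -3.43 ± 0.35. The ephrin receptor Epha5 was at 0.00 to 1.95 against 11.8 to 32.9, with -4.19 ± 0.36.

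Of 16 Notch genes tested, Notch1, Notch2, Notch3, Hes1, Heyl, Lfng and Nrarp were higher in the cells with Sox10 and Jag2 was lower. Of all genes, 6.13% were higher and 7.54% lower. The Notch target Hes1 stood at 58.3, 74.2, 51.6 and 65.9 CPM in the cells with Sox10 and at 6.33, 14.7, 21.9 and 10.98 in those without, with a log2 fold change of 2.46 ± 0.25. Hes6, at 254 ± 67.7 against 322 ± 76.0 (SD, n = 4), overlapped between the groups and did not pass the test (-0.30 ± 0.16, adjusted p = 0.16, edgeR).

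At E10.5, a smaller share of adrenosympathic cells than of cells of either other type was assigned to S or G2/M phase by the authors' scores. In XX replicates 1 and 2 and XY replicates 1 and 2 of E10.5 these were 45.7%, 41.8%, 44.4% and 49.6% of adrenosympathic cells. In the CE they were 82.9%, 64.0%, 69.0% and 69.0%, and in the MM 82.7%, 71.8%, 70.9% and 74.9%. The difference was -25.8 ± 7.85 percentage points from the CE and -29.7 ± 5.25 from the MM (SD, n = 4 libraries), and it was negative in 4 of 4 libraries. The exact paired permutation test gave p = 0.12 for each (two-sided, the same after adjustment over both), the smallest it can give with 4 pairs. Among cells in the central depth range of the adrenosympathic cells of their library the differences were -36.01 and -42.1 points. At E11.5 the libraries with 22, 28 and 9 adrenosympathic cells went different ways. The shares in XX replicate 1 and XY replicates 1 and 2 were 40.9%, 53.6% and 66.7% in adrenosympathic cells, 55.2%, 58.1% and 53.9% in the CE and 52.9%, 47.9% and 50.6% in the MM. Adrenosympathic cells thus lay below both types in XX replicate 1, between them in XY replicate 1 and above both in XY replicate 2. Among cells in the central depth range of adrenosympathic cells they were below both in the first 2 libraries. In the last they were above both, with 57.1% of 7 cells against 51.7% and 50.7%. There the range kept 1119 of 1201 CE and 1947 of 1986 MM cells, so depth was hardly matched.

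**Figure D3:**
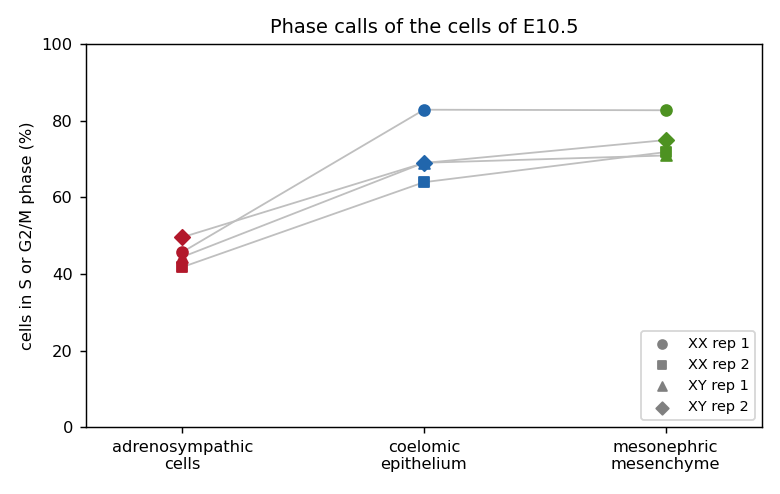
Percent of cells in S or G2/M phase (y axis) in adrenosympathic cells, CE and MM of the 4 libraries of E10.5, with lines joining the types of 1 library. Adrenosympathic cells lie at 41.8% to 49.6%, below both other types in every library.

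Cells in G1 were unequally spread over the groups set by Sox10. They made up 34.7% of the cells with Sox10 and 82.1% of those without. Over the 4 libraries these shares ran from 31.1% to 44.0% and from 70.0% to 92.0%, without overlap. After thinning to 10000 UMIs per cell for the division, the shares were 31.1% and 68.8%. Of 15 cell cycle genes tested, 10 were higher in the cells with Sox10 and 1, the inhibitor Cdkn1a, was lower. Cdkn1a had 153 UMIs in 47 of the 549 cells, and 64 and 27 of them came from 2 cells. Of all genes, 6.13% were higher and 7.54% lower in this division. Pcna, which clamps DNA polymerase, was at 85.97, 64.7, 83.8 and 95.3 CPM against 20.3 to 42.1, and its log2 fold change of 1.52 ± 0.17 became 0.90, and was not called, when cells were thinned before division. Of all genes, 7.84% were higher and 6.27% lower in adrenosympathic cells than in both other types. Of 15 cell cycle genes, 2 were higher in adrenosympathic cells as a whole, near that share, and none was lower. These were Ccnd1, at 275, 401, 384 and 313 CPM against 47.5 to 73.2 in the CE, and Cdkn1c, an inhibitor that stops cycling, at 1372, 2454, 1783 and 1873 against 211 to 434.

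Adrenosympathic cells were most frequent at E10.5. They made up 3.63 ± 1.79% of cells (SD, n = 4 libraries), ranging from 1.64% to 5.47%. At E11.5 there were 22 and 1 in the XX and 28 and 9 in the XY libraries, or 0.328 ± 0.260%. There were 14 among 20285 cells of E12.5, 4 among 25794 of E13.5 and 0 among 16994 of E16.5. In the 4 libraries of E16.5 a count of 0 allows shares of up to 0.0457% to 0.146% by the limit of 3 counts, and the upper ends of the Clopper-Pearson intervals are 0.0562% to 0.180% (both counting error only). The mesonephros was left off from E12.5 on, so stage and dissection cannot be told apart there, and fewer such cells and a smaller dissected region cannot be told apart.

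**Figure D4:**
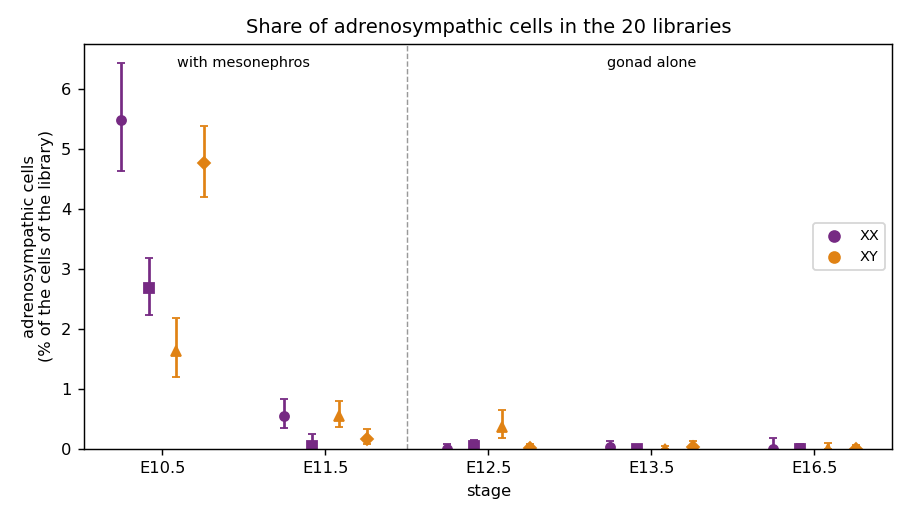
Share of these cells (y axis, % of the cells of the library) by stage, with 4 libraries per stage and bars for the 95% Clopper-Pearson interval. Shares run from 1.64% to 5.47% at E10.5 and stay at or below 0.551% at all later stages.

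The shares of XX and XY libraries overlapped. At E10.5 it was 5.47% (95% interval 4.62% to 6.43%) and 2.67% (2.22% to 3.18%) in XX and 1.64% (1.20% to 2.18%) and 4.76% (4.19% to 5.38%) in XY libraries. The XX minus XY difference was 0.876 points, with p = 0.667 in the exact permutation test (two-sided, adjusted p = 1 over both stages), where 2 against 2 libraries cannot go below 0.333. The difference turned to -0.525 points without XX replicate 1 and to -0.686 without XY replicate 1.

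Between XX and XY adrenosympathic cells, the 5 genes called in the planned fit were sex-linked. Of 12531 genes, 1 (0.00798%) was higher and 4 (0.0319%) were lower in XX at E10.5, or 0.0399% in all. The first was Xist, the RNA that silences the X chromosome, at 1443 and 1502 CPM in XX and 0.00 and 0.50 in XY (log2 fold change 11.66 ± 0.26, adjusted p = 1.5e-06, edgeR). The others were the Y-linked Ddx3y, Eif2s3y, Uty and Kdm5d, which the matrix sets to 0 in XX. An unadjusted p below 0.05 was found for 190 genes. DESeq2 called 10, the fit without a filter on low counts 53 and the fit blocked by the date in the labels 16. Each sex had 2 libraries, and a p above the threshold does not show that levels were alike.

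Few genes were called between the adrenosympathic cells of E10.5 and E11.5. The 3 libraries of E11.5 with at least 5 adrenosympathic cells held 22, 28 and 9. The dates in their labels differ from those of E10.5, so that stage and date cannot be told apart. In the planned fit, 53 of 10379 genes were higher (0.511%) and 38 lower (0.366%) at E11.5, or 0.877% in all. Of the 38, 15 are at 0 in a group through the matrix filter and say nothing of the cells. Among 10391 genes with counts in every group, 46 (0.443%) rose and 19 (0.183%) fell, or 0.626%, and 1807 had an unadjusted p below 0.05. Without XX replicate 1 of E11.5 2 genes were called, without XY replicate 1 of E11.5 3, and without XX replicate 1 or XY replicate 2 of E10.5 16 and 14. Without XY replicate 2 of E11.5, which holds 9 cells, 105 were called.

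Of the 15 sympathoadrenal transcription factors, the 13 catecholamine genes and the 26 neuronal genes with counts in every group, none was called between the stages, where 0.626% of all genes were, so the count says nothing particular to these lists. Hand2 was at 142.5, 172 and 297 CPM in XX replicate 1 and XY replicates 1 and 2 of E11.5. Its log2 fold change was 0.05 ± 0.21 (adjusted p = 0.96, edgeR), and the sign turned in 5 of 14 alternatives. Among the 14, at least 20 cells per sum and leaving out XY replicate 2 of E11.5 are the same fit, counted in both places. The 14 are alternatives to the planned fit. They include the fit of genes with counts in every group, from which the largest rises and falls between stages were named. Dbh was at 341, 232 and 477, with -0.55 ± 0.19 (adjusted p = 0.18), and Th at 71.3, 24.3 and 113, with -0.88 ± 0.31 (adjusted p = 0.18). Sox10 was at 71.3, 57.0 and 40.5, with -0.48 ± 0.20 (adjusted p = 0.23). Tubb3 passed the p threshold (adjusted p = 0.042) but with -0.66 ± 0.12 not the fold. Dbh, Th and Sox10 thus stood lower without passing the test, and levels that stayed alike are not shown. Against the CE and MM of E11.5, 1252 (7.04%) and 1196 (6.73%) of 17782 genes were higher and 1672 (9.40%) and 1508 (8.48%) lower. There the median log2 fold change of all genes was -0.18 and -0.17, and DESeq2, with its own scaling, called 1516 higher and 1299 lower than in the CE and 1476 and 1146 in the MM comparison.

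Hes1, which represses proneural genes, rose. It went from 42.4, 50.9, 38.7 and 47.7 CPM in XX replicates 1 and 2 and XY replicates 1 and 2 of E10.5 to 201, 182 and 279 in XX replicate 1 and XY replicates 1 and 2 of E11.5, without overlap. Its log2 fold change was 2.17 ± 0.16 (adjusted p = 0.00037, edgeR), and it was called in each of the 14 alternatives. The same change was 2.37 ± 0.12 in the CE and 2.58 ± 0.11 in the MM, where it reached 392 to 465 and 491 to 557 CPM at E11.5, above adrenosympathic cells. The part of their RNA in the rise was not tested. Id4 was called as well (2.43 ± 0.47), but lost the call in 9 of 14 alternatives. It rose in the CE and MM by 3.10 ± 0.21 and 1.85 ± 0.20. Of the 65 genes called in adrenosympathic cells, 31 were called in the same direction in the CE and 29 in the MM, where 7.71% and 7.90% of genes rose and 3.63% and 2.93% fell (11.3% and 10.8% in all).

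**Figure D5:**
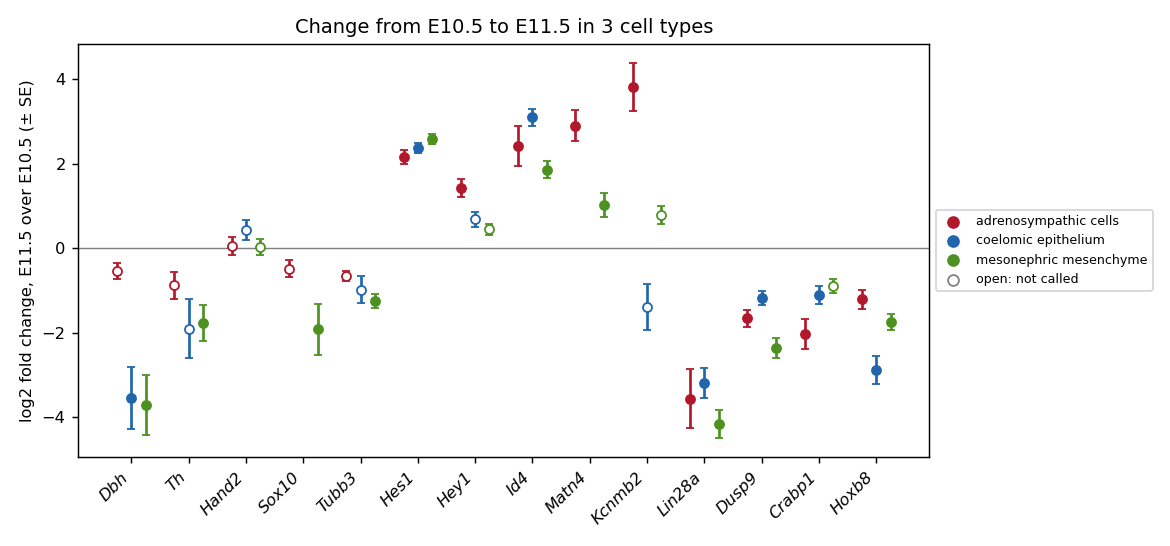
Log2 fold change from E10.5 to E11.5 (y axis, ± SE) of 14 genes in adrenosympathic cells, CE and MM. Filled points were called, open ones were not, and types in which a gene could not be tested have no point. Hes1 and Id4 were called higher and Lin28a and Dusp9 lower in all 3 types, the calls in adrenosympathic cells being lost in 0, 9, 8 and 2 of 14 alternatives, while Dbh, Th, Hand2 and Sox10 were not called in adrenosympathic cells.

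Some genes that rose stood higher than in other types at E11.5, or rose more than in the CE and MM. Matn4, a matrix protein, went from 2.71 to 4.46 CPM over the libraries of E10.5 to 35.6, 23.2 and 9.0 at E11.5 (log2 fold change 2.90 ± 0.37). It stood at 26.2 in the pooled adrenosympathic cells of E11.5 and at most 8.44 in another type. Its mean also rose in the CE, from 0.11 to 0.50 CPM, and in the MM, from 0.22 to 0.51. Kcnmb2, a subunit of a potassium channel, rose by 3.82 ± 0.57 to a pooled 15.6, against at most 6.38 elsewhere. Its mean went from 1.55 to 0.67 CPM in the CE and from 1.01 to 1.97 in the MM. Hey1, a Notch target, rose by 1.42 ± 0.22, against 0.68 ± 0.18 in the CE and 0.45 ± 0.13 in the MM, which were not called. None of these differences between types was tested, and the calls of Matn4, Kcnmb2 and Hey1 were lost without XX or XY replicate 1 of E11.5. Of the other large rises, Hbb-bt, Mgp, Dppa5a and Col12a1 were no higher than in some other type at E11.5, with Hbb-bt at 16009 in blood and Dppa5a at 3190 in germ cells. Tm4sf1 was at 21.7 against 57.8 in endothelium.

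The falls with the largest folds were Wfikkn1, Lin28a, Ppp2r2c, Hoxb5os, Adamts4, Prss23, Crabp1 and Dusp9. Lin28a, an RNA-binding protein of early embryonic cells, had a log2 fold change of -3.57 ± 0.70, and of -3.19 ± 0.35 in the CE and -4.17 ± 0.33 in the MM. Crabp1, which binds retinoic acid and is common in crest, went from 224, 176, 116 and 244 CPM to 33.1, 45.4 and 99.0. This is a log2 fold change of -2.04 ± 0.36. Its mean also fell in the CE, from 44.7 to 21.6, and in the MM, from 358 to 216, above adrenosympathic cells at both stages. Dusp9 fell by 1.66 ± 0.19, from 74.5 to 95.7 to 24.3 to 31.8, without overlap. Hoxb8 had -1.21 ± 0.23, against -2.87 ± 0.33 in the CE and -1.74 ± 0.19 in the MM. Of 14 alternatives, the calls in adrenosympathic cells were lost in 8 for Lin28a, 8 for Hoxb8, 4 for Crabp1 and 2 for Dusp9. All 4 were lost without XX replicate 1 or XY replicate 1 of E11.5.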

How the data were processed

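Cells were typed, given a cell cycle phase by scores of S and G2/M genes, and counted by the authors, whose deposited matrix holds raw UMI counts from Cell Ranger 2.1 on GRCm38 with eGFP added. No cells had been removed for quality or as doublets. The deposited matrix holds, within each sex and stage, no counts of genes found in fewer than 20 cells. Its cell annotation has 27 columns, of which 17 were not used. Of the 2 libraries of a group, the one dated earlier in the titles was taken as replicate 1.

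For each library, the UMIs of all cells of a type were added up where there were 5 or more, and expressed as CPM. These sums went into the quasi-likelihood test of edgeR 4.0.16 (R 4.3.3), with TMM factors, the filter filterByExpr and genetic sex as a covariate. Its p-values are two-sided and were adjusted over all genes tested by Benjamini-Hochberg. The SE given with a fold change is its absolute value divided by the square root of the test's F statistic. It restates the test and is no separate estimate of spread. Calls needed an adjusted p under 0.05 and at least a 2-fold difference. DESeq2 1.42.0 was an alternative. The fits were tested on simulated data in which 200 genes had been changed. Types of 1 library pair by that library, and the XX and XY libraries of E10.5 compared here pair by date. Deviations of types of 1 library from the group means correlated by 0.58 to 0.75 at E10.5 and by 0.30 to 0.38 at E11.5. The main fits, also that of the division by Sox10, leave this pairing out, and the fits with a block take it in.

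The genes named are those of 26 lists (367 genes), each with its count, the 10 largest rises and falls against both types, and the 8 largest between stages and within the division by Sox10, which was chosen after the data were seen. Some genes, and a planned division of the cells, are not reported here. Gene models without a name were left out. Members and lists were chosen with earlier results of these data known. Doublet scores were computed anew. Intervals of shares are Clopper-Pearson and those of summed counts Poisson, and both cover counting error only. Python 3.11.15 was used with numpy 2.4.6, pandas 2.3.3 and scipy 1.17.1. Whether reads were counted by strand is not given in the sources used here.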

Additional observations from a re-analysis of the deposited data

Results flagged for a closer look

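Adrenosympathic cells of E12.5 entered no comparison, and 1 library held enough to look at. The 11 cells of XY replicate 1 had 147885 UMIs. In them Dbh stood at 832 CPM (95% Poisson interval 691 to 992), against 0.70 in the other cells of the library. Th stood at 744 (611 to 897) against 0.66. The granule proteins Chgb and Chga stood at 3537 (3240 to 3853) against 1.5 and at 595 (477 to 733) against 0.68. Sox10 was at 33.8 CPM there, and Ret had no UMI. Foxd3 and Cdh19 are at 0 in this group through the matrix filter.

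Of 21 quantities compared over the 4 libraries of E10.5, 0 had a library farther from the others than Dixon's test at 95% allows for 4 samples. Chance alone gives about 1 such flag in 20 groups.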

How the results depend on the processing

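Against the CE and MM at E10.5 the calls of most named genes held under the settings tried, while the counts of called genes moved. All 228 values of 19 named genes against the CE stayed called in the same direction. So did 222 against the MM, where the 6 others were those of Star and Cyp11a1. These include the setting of at least 20 cells per sum, which left out no sum of E10.5 and was thus the main fit. Leaving out 1 library gave 3188 to 3513 and 3055 to 3297 called genes at E10.5, and at E11.5 2075 to 2813 and 1918 to 2602. With the library as a replicate block 3955 and 3731 genes were called at E10.5, then 3010 and 2809 at E11.5 and 1710 between cells with and without Sox10, and the block by date called 16 between the sexes. Without the fold threshold 7044 and 6702 were called at the earlier stage, 4667 and 4481 at the later and 3603 in the division by Sox10. With as many CE and MM cells as adrenosympathic cells, 2525 and 2420 were called at E10.5 instead of 3602 and 3373, and 1129 and 1003 at E11.5, with fewer genes tested at both stages.

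The comparison of stages depended most on the libraries. DESeq2 called 154 genes instead of 91, no filter on low counts 389, E10.5 libraries cut to the cell numbers of E11.5 29, and leaving out 1 library 3 to 128. For 14 named genes 144 values kept their call or lack of one and 47 were no longer called. The sign of Hand2, not called, turned to -0.048 with no filter and to -0.17 with at least 20 cells per sum. Its value ran from -0.17 to 0.27 without 1 library. At least 20 cells per sum and leaving out XY replicate 2 of E11.5 were the same fit here. The fit of genes with counts in every group, from which the largest rises and falls between stages were named, also counted as an alternative. Between the sexes DESeq2 called 10 genes, no filter 53, genes with counts in both sexes 1, and leaving out 1 library 5 to 20. In the division by Sox10, thinning cells first left 526 calls, and leaving out 1 library 1213 to 1777. There 215 values of 20 named genes kept their side of the threshold, and the other was that of Pcna in thinned cells. The XX minus XY difference in share ran from -0.686 to 2.44 points without 1 library. The differences in S or G2/M phase were -36.01 and -42.1 points among cells in the central depth range of adrenosympathic cells. Without 1 library they ran from -28.0 to -22.0 and from -31.2 to -27.3. The causes were not tested.

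The leaving out of doublets by the authors' score could not be run, as the cell table used has none, and scores computed anew took its place after the data were seen, as did the division by Sox10 with its alternatives, the cut of cell numbers and the restriction to genes with counts in every group. Among the stages compared, depth limits E11.5 most, where 3 libraries held 222290 to 947662 UMIs of these cells against 1369396 to 7952424 at E10.5.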
